A study of Homo sapiens with 12 samples.

Results

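Messenger RNA was measured in WI-38, a fibroblast line from human embryonic lung, after small interfering RNAs (siRNAs) against the transcriptional coactivators YAP and TAZ. Of the 12 libraries of the series, 4 make this comparison. The YT group, replicates 3 and 4, received siRNAs against YAP and TAZ together with a control siRNA called siAS. The control group, replicates 1 and 2, received siAS in both siRNA positions, so all 4 libraries carry siAS. Transfection used Lipofectamine RNAi-MAX, and the cells were grown in MEM with fetal bovine serum. The siRNA sequences and doses and the time after transfection were not given in the sources used here. Because the YAP and TAZ siRNAs were given together, the share of each in a change cannot be told apart. The other 8 libraries are 4 groups of 2 that received siRNAs against the DNA sensor cGAS or its adaptor STING in place of siAS, with the YAP and TAZ siRNAs (cGAS_YT, STING_YT) or without them (cGAS, STING). The labels do not say whether replicates were separate cultures, and p-values therefore measure only the spread between these libraries, which may be technical.

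YAP, encoded by YAP1, and TAZ, encoded by WWTR1, are paralogous coactivators that the Hippo kinases MST and LATS hold in the cytoplasm by phosphorylation. In the nucleus they bind TEAD transcription factors and activate genes of proliferation, the cytoskeleton and the extracellular matrix. In fibroblasts they are known to respond to stiffness of the matrix and tension of the actin cytoskeleton. The cGAS enzyme makes a cyclic dinucleotide when it binds DNA in the cytosol, and STING passes that signal on to interferon and NF-kB pathways.

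Levels are given as CPM, the reads of a gene relative to all reads of its library, scaled by the authors. The kit sequences the 3′ end of each messenger RNA, so a transcript gives about 1 fragment and the values need no correction for length. A change is the difference of log2(CPM + 1), YT minus control, ± its SE from a limma fit over all 12 libraries. A gene is called higher or lower where its adjusted p is below 0.05 by limma with Benjamini-Hochberg adjustment over all 13894 genes tested. "Rose" and "fell" refer to called genes only. The added 1 understates the change of weakly expressed genes.

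The 4 libraries held 18134404 to 19875656 reads, and 3 reads were worth 0.154 to 0.170 CPM. Mitochondrially encoded transcripts took 4.14% and 3.52% of reads in the YT libraries and 4.23% and 2.70% in the control libraries. The log2 values of YT replicates correlated at 0.987 across genes, and those of the control replicates at 0.993. Among 10072 genes that averaged at least 5 CPM in YT cells, 139 differed more than 2-fold between the YT libraries, and all 139 were lower in replicate 4. In 121 of these genes replicate 4 was the lowest of all 12 libraries. Their median level was 27.3 CPM in YT replicate 3 and 9.37 CPM in YT replicate 4, against 24.2 and 24.2 CPM in the control libraries. In the control group 14 genes of 10118 were that far apart, all higher in replicate 1. Without YT replicate 3, 119 of the 139 genes were called lower and 5 higher in YT cells, and without YT replicate 4, 27 were called lower and 39 higher. With all libraries in the fit, 61 of the 139 were called lower, 7 higher and 71 not called. Those calls are part of the counts given below. Why the 139 genes were low in YT replicate 4 was not tested. All 139 are marked in the plot of differences within groups.

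**Figure D1:**
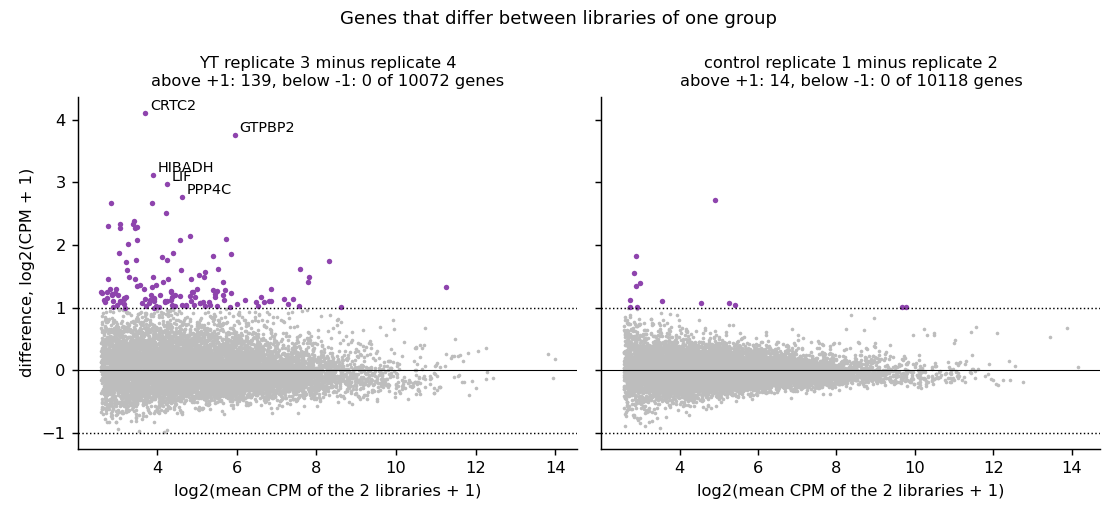
Difference between the 2 libraries of a group for each gene that averaged at least 5 CPM, on the log2(CPM + 1) scale, against its mean level, for YT (left) and control (right). Purple points lie beyond the dotted lines at 1 and -1, and all 139 such genes of YT and all 14 of control lie above the upper line, higher in YT replicate 3 and in control replicate 1.

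The genes furthest apart were CRTC2, a coactivator of CREB, and GTPBP2, a rescue factor of stalled ribosomes. CRTC2 was at 23.5 and 0.412 CPM in replicates 3 and 4 of YT, against 18.4 and 20.1 CPM in control cells. GTPBP2 was at 114 and 7.46 CPM in YT cells, against 83.9 and 78.3 CPM in control cells. HIBADH, a mitochondrial dehydrogenase of valine breakdown, was at 25.6 and 2.06 CPM in YT cells, against 29.7 and 31.4 CPM in control cells. In each of these the YT libraries lay on different levels and only replicate 4 stood well below the control libraries. The change of HIBADH was -1.81 ± 0.56 with both YT libraries, -0.24 without replicate 4 and -3.37 without replicate 3, and it was called only with both control libraries and YT replicate 4 in the fit. The other genes among the 10 furthest apart were LIF, PPP4C, IL6, RABGGTB, SDHD, QPCTL and the noncoding RP11-977G19.5. Of the gene lists described below, the cytokines held 4 of the 139 genes and the Wnt list 3. The immediate early genes, the respiratory chain, the NRF2 targets and the BCL2 family and caspases held 2 each, and no other list more than 1.

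Both targeted transcripts were low in YT cells. YAP1 (chromosome 11, 102110461 to 102233423, plus strand of GRCh38) was at 16.3 and 13 CPM in YT cells, against 114 and 105 CPM in control cells, a change of -2.83 ± 0.13 (limma, adjusted p = 1.14e-10). WWTR1 (chromosome 3, 149517235 to 149736714, minus strand of GRCh38) was at 22.8 and 16.7 CPM in YT cells, against 133 and 144 CPM in control cells, a change of -2.76 ± 0.12 (limma, adjusted p = 7.15e-11). Both genes were several-fold lower in both YT libraries, with 13.4% of YAP1 and 14.2% of WWTR1 left.

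In YT cells 2865 genes rose, 20.6% of the 13894 tested, and 2908 fell, or 20.9%. Of these, 605 genes (4.35%) rose and 700 (5.04%) fell by at least 2-fold on the log2(CPM + 1) scale. The counts of each gene list below are to be read beside the shares of 20.6% higher and 20.9% lower. The median change of all genes was 0.00, so the changes below stand against a centre at zero. CPM are relative to the reads of a library and scaled between libraries, which sets this centre near zero. Total RNA per cell was therefore not measured. The share called depended on the level, and was 23.2% among 3706 genes below 5 CPM and 58.4% among 2088 genes at 100 CPM and above. The 15 most raised genes by the naming rule were CXCL1, PTGS2, CXCL8, IL24, C11orf96, CXCL5, IL1B, CXCL3, IL1A, AREG, NR4A2, EREG, SLC16A6, CFTR and CXCL2. Of these, 8 are cytokines or chemokines. The 15 most lowered were OXTR, CLDN11, MEST, KRTAP2-3, CYR61, HHEX, ANLN, NCAPG, LMNB1, ZWINT, NUF2, CEP55, CDCA8, CDK1 and ANKRD1, of which CYR61 and ANKRD1 are YAP/TAZ targets and 7 act in cell division. Where a gene list below has no member called in a direction by limma, edgeR called 0 in it as well. DESeq2 called 0, except 1 higher nuclear gene of the respiratory chain and 1 higher mitochondrial transcript. Unadjusted p-values below 0.05 in such a direction were met by 0 members of each list, except 1 of the respiratory chain, 2 mitochondrial transcripts and 1 lower NF-kB gene.

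**Figure D2:**
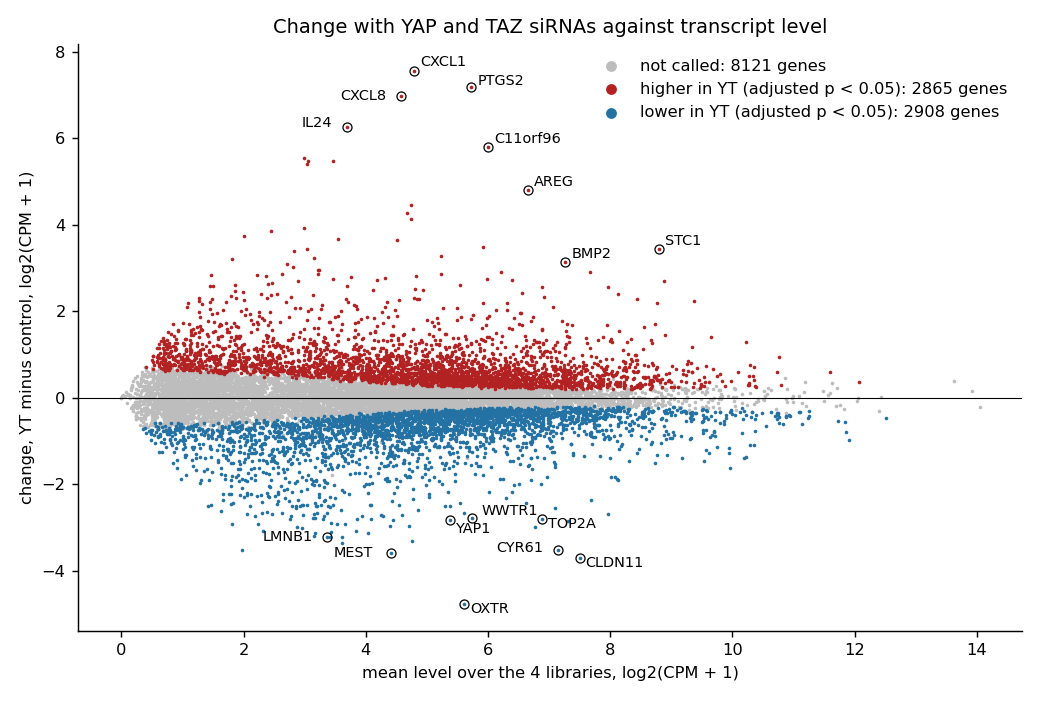
Change of each of the 13894 genes, YT minus control on the log2(CPM + 1) scale, against its mean level over the 4 libraries. Red points are the 2865 genes called higher and blue points the 2908 called lower, and the circled genes run from CXCL1 at 7.56 to OXTR at -4.77.

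OXTR, the receptor for oxytocin, had the largest fall. It was at 8.93 and 7.77 CPM in YT cells, against 246 and 259 CPM in control cells, a change of -4.77 ± 0.11 (limma, adjusted p = 4.33e-14). CLDN11, a tight-junction claudin, was at 50.3 and 48.0 CPM in YT cells, against 614 and 693 CPM in control cells (-3.70 ± 0.09). MEST, an imprinted gene expressed from the paternal allele, was at 7.29 and 3.60 CPM in YT cells, against 66.0 and 81.1 CPM in control cells (-3.59 ± 0.19). The YT and control values of these 3 genes were far apart and did not overlap. HHEX, a homeobox repressor, changed by -3.36 ± 0.15. KRTAP2-3, a hair keratin-associated protein whose reads can be split among near-identical family members, was at 0.158 and 0.154 CPM in YT cells, the worth of about 3 reads, against 14.2 and 10.7 CPM in control cells.

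The known YAP/TAZ target genes fell for the most part. Of 22 members tested, 15 were called lower and 1 higher, with a median change of -1.07 beside 0.00 for all genes. Promoters of CTGF and ANKRD1, both established TEAD targets, are shown because they hold the letters GGAATG, the core that TEAD factors bind. They are the 250 bases upstream of the start in RefSeq on GRCh38.p14, CTGF at chr6:131951373-131951622 and ANKRD1 at chr10:90921088-90921337, both on the minus strand, with GGAATG in capitals.
CTGF: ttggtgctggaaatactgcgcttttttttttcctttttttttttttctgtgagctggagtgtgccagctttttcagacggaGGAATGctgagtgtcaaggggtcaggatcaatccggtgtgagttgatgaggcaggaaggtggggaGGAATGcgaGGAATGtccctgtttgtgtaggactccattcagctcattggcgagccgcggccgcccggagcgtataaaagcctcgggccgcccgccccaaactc
ANKRD1: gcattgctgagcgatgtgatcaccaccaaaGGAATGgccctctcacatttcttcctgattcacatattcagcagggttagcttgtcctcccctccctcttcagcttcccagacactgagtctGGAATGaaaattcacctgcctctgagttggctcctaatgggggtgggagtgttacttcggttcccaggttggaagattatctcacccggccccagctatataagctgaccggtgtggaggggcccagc
Searched on both strands, GGAATG stood in the window of 6 of the 14 target genes with a RefSeq promoter (42.9%) and in 11.9% of all 27305 promoters. CTGF, ANKRD1, PTPN14 and TGFB2 held it and fell, and FOXF2 and NUAK2 held it and were not called. MYOF, IGFBP3, CCDC80, NT5E and RBMS3 fell without a match, and LATS2, F3 and FJX1 had no match and were not called. The list was made of known targets, and whether the motif goes with the fall was not tested. The 3 matches of CTGF begin 169, 104 and 95 bases before the start, and those of ANKRD1 220 and 128 bases before it.

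CTGF, which encodes the matricellular protein CCN2, was at 125 and 76.4 CPM in YT cells, against 632 and 637 CPM in control cells. Its change was -2.68 ± 0.15 (limma, adjusted p = 7.87e-10). CYR61, which encodes the related CCN1, was at 50.6 and 32.8 CPM in YT cells, against 502 and 454 CPM in control cells (-3.52 ± 0.13). ANKRD1, an ankyrin-repeat protein of muscle and fibroblasts, was at 0.475 and 0.978 CPM in YT cells, against 14.9 and 12.2 CPM in control cells (-3.08 ± 0.21). In all 3, both YT libraries lay far below both control libraries, and YT replicate 4 was the lower of the pair for CTGF and CYR61. AMOTL2 and PTPN14, which restrain YAP, changed by -1.55 ± 0.09 and -1.37 ± 0.08. MYOF, a membrane-repair ferlin, changed by -1.6 ± 0.08. TGFB2, CRIM1, IGFBP3, NT5E, CCDC80, AXL, GADD45A, ASAP1 and RBMS3 also fell, with changes between -2.37 for CRIM1 and -0.61 for RBMS3. ARHGEF17, a guanine nucleotide exchange factor, rose by 0.34.

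The members that were not called were F3, LATS2, FJX1, FOXF2, NUAK2 and DOCK5. F3, tissue factor, was at 1223 and 700.4 CPM in YT cells, against 922 and 808 CPM in control cells. The YT libraries lay on either side of the control libraries. Its change was 0.10 with all libraries, -0.30 without YT replicate 3 and 0.50 without YT replicate 4, each past the threshold when a YT library was left out. LATS2, the kinase that inactivates YAP, was at 78.4 and 69.2 CPM in YT cells, against 85.3 and 92.4 CPM in control cells (-0.27 ± 0.11, limma, adjusted p = 0.0571).

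Among Hippo kinases, scaffolds and TEAD partners, 8 of 31 rose and 14 fell, beside 20.6% and 20.9% of all genes, with a median of -0.27. TEAD1, the most used partner of YAP in many tissues, was at 121 and 114 CPM in YT cells, against 208 and 174 CPM in control cells (-0.69 ± 0.09). TEAD4 fell by 1.03. TEAD3 fell by 0.57 and TEAD2 rose by 0.45, and both were not called without YT replicate 4, with changes of -0.12 and 0.24, TEAD3 also not without either control library. VGLL3, a TEAD cofactor that competes with YAP, fell most of these, to 16.7 and 13.5 CPM in YT cells, against 56.3 and 55.6 CPM in control cells (-1.83 ± 0.12). Of the kinases, STK3 and STK4, which encode MST2 and MST1, rose by 0.44 and 0.58, and MAP4K4 rose by 0.56, with STK3 not called without control replicate 2 (0.33). The scaffold NF2 and the LATS inhibitor AJUBA fell, with changes of -0.79 and -1.14. The count of higher members was 5 without control replicate 2.

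Genes of the cell cycle fell together. Of 47 genes of G2 and mitosis 45 were lower and none was higher, with a median change of -2.5, and 40 of 45 genes of DNA replication were lower and none higher, with a median of -1.29. These shares stand beside 20.9% lower among all genes. In bulk RNA, fewer cells in a phase and less RNA per cell cannot be told apart. Summed over the mitotic list, the level was 534 and 544 CPM in YT cells, against 2079 and 2232 CPM in control cells.

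TOP2A, the topoisomerase that untangles chromosomes, was at 38.8 and 48.9 CPM in YT cells, against 309 and 309 CPM in control cells (-2.80 ± 0.11, limma, adjusted p = 3.52e-11). ANLN, the anillin of the contractile ring, was at 8.56 and 6.74 CPM in YT cells, against 83.6 and 84.6 CPM in control cells (-3.31 ± 0.16). CDK1, the kinase that drives entry into mitosis, was at 3.59 and 1.96 CPM in YT cells, against 26.5 and 35.5 CPM in control cells (-3.10 ± 0.22). In each of these genes both YT libraries lay far below both control libraries. The spindle and kinetochore genes TPX2, CENPF, CENPE, NUF2 and AURKB changed by -2.95, -2.65, -2.58, -3.19 and -2.80. MKI67, the proliferation marker Ki-67, was at 8.61 and 5.92 CPM in YT cells, against 59.7 and 54.3 CPM in control cells (-2.83 ± 0.16). BUB3 and ECT2 were the members that did not pass, at -0.15 ± 0.09 and -0.09 ± 0.16.

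The promoter of CCNB2, which encodes cyclin B2, is shown because its window holds TTTGAA, the core of the cell cycle homology region through which the DREAM and MMB complexes act. It lies at chr15:59104896-59105145 on the plus strand of GRCh38.p14 (RefSeq), with TTTGAA in capitals.
CCNB2: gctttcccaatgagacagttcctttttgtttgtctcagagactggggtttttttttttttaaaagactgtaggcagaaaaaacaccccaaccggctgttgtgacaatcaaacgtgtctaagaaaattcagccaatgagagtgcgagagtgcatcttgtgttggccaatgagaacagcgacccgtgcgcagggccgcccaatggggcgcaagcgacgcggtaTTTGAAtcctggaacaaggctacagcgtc
The match begins 29 bases before the start. TTTGAA was found, on either strand, in 19 of 32 mitotic genes with a promoter entry (59.4%) and in 13.6% of all promoters. CCNB2 itself was at 2.59 and 2.11 CPM in YT cells, against 20.3 and 23.7 CPM in control cells (-2.78 ± 0.19).

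In DNA replication, RRM2, the small subunit of ribonucleotide reductase, was at 5.86 and 7.10 CPM in YT cells, against 44.9 and 50.4 CPM in control cells (-2.70 ± 0.16). CDC6 and MCM10, which load and activate the replicative helicase, changed by -2.11 ± 0.20 and -2.29 ± 0.22. The helicase subunits MCM2 to MCM7 fell less, with changes between -0.67 for MCM3 and -1.47 for MCM6, and MCM3 was not called without control replicate 2 (-0.47). TK1 and TYMS, which supply thymidine nucleotides, changed by -1.73 and -1.47. SLBP, POLD3, RFC2 and GINS3 were among the 5 members that did not pass. The letters TTTGGCGC or TTTCGCGC, bound by E2F factors, stood in 5 of 31 replication genes with a promoter entry (16.1%) and in 0.996% of all promoters, on either strand.

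Of 27 genes of homologous recombination and Fanconi repair, 22 fell and none rose, with a median of -1.33. BARD1, the partner of BRCA1, was at 9.98 and 9.31 CPM in YT cells, against 32.3 and 31.4 CPM in control cells (-1.62 ± 0.12). RAD51AP1, FANCD2, BRCA2 and BRCA1 changed by -2.38, -2.11, -1.93 and -1.42. ATM, the kinase of double-strand breaks, was not called, at 0.17 ± 0.10.

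Of 19 regulators of G1 5 rose and 8 fell, beside 20.6% and 20.9% of all genes, so the share that rose was near that of all genes. The count of higher members was 3 without control replicate 1. CDKN2B, the inhibitor p15, was at 60.2 and 49.9 CPM in YT cells, against 21.5 and 20.7 CPM in control cells (1.33 ± 0.13). CDKN1B (p27), CDKN1C (p57) and CDKN1A (p21) rose by 0.74, 0.78 and 0.42. CDKN2A, which encodes p16 and ARF, was not called, at 125 and 100.4 CPM in YT cells, against 92.4 and 106 CPM in control cells. CDK6 fell to 249 and 223 CPM in YT cells, against 583 and 493 CPM in control cells (-1.18 ± 0.09). The D-type cyclin CCND1 fell by 0.53, and the pocket proteins RB1, RBL1 and RBL2 fell, with changes of -1.39, -0.95 and -0.49. CDKN1A was not called without control replicate 1 (0.33), and RBL2 without YT replicate 4 (-0.31) or control replicate 2 (-0.36).

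Of the nuclear lamina and the LINC complex, which ties it to the cytoskeleton, 8 of 18 members fell and 4 rose, beside 20.9% and 20.6% of all genes. With only the YT and control libraries fitted, 6 fell and 3 rose. LMNB1 (chromosome 5, 126776623 to 126837020, plus strand of GRCh38), the B-type lamin that is lost in senescent cells, was at 2.32 and 2.47 CPM in YT cells, against 29.6 and 31.4 CPM in control cells. Its change was -3.21 ± 0.18 (limma, adjusted p = 1.10e-09). LMNB2 was at 33.3 and 32.3 CPM in YT cells, against 78.6 and 78.3 CPM in control cells (-1.23 ± 0.10). The B-type lamins were thus lower in both YT libraries than in either control library. LMNA, which encodes lamins A and C, fell by 0.74, and TMPO, the lamina-associated LAP2, fell by 1.69. The LINC genes SYNE1 and SUN1 fell, with changes of -0.82 and -0.69, while SYNE2 and SUN2 rose by 0.84 and 0.34, with SYNE2 not called without control replicate 2 (0.52). Emerin (EMD) was not called, at -0.15 ± 0.09.

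The Arp2/3 complex nucleates branched actin. ACTR2 (chromosome 2, 65227753 to 65271253, plus strand of GRCh38), which encodes its Arp2 subunit, was at 158 and 130.1 CPM in YT cells, against 531 and 540.5 CPM in control cells. Its change was -1.90 ± 0.09 (limma, adjusted p = 1.14e-10), the only member of the 18 tested that fell at least 2-fold. The subunits ARPC2, ACTR3 and ARPC1A fell, with changes of -0.61, -0.53 and -0.42, and ARPC4 and the branch stabiliser CTTN were not called, at -0.16 ± 0.10 and -0.12 ± 0.08. In all, 9 of the 18 members fell and none rose, with a median of -0.28. With only the YT and control libraries fitted, 4 of the 18 fell and 0 rose, so the count of lower members was not stable. Among formins, cofilins, profilins and capping proteins 9 of 17 fell and 3 rose. The formin DIAPH3 was at 7.45 and 9.52 CPM in YT cells, against 51.9 and 44.6 CPM in control cells (-2.38 ± 0.15), whereas DIAPH2, DAAM1 and FMNL3 rose by 0.77, 0.88 and 0.66. The monomer-binding PFN1 and PFN2 fell, with changes of -0.86 and -0.73.

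Contractile genes fell in 21 of 25 members, none rose, and the median was -0.79. ACTA2, alpha smooth muscle actin and a marker of myofibroblasts, was at 790.1 and 934 CPM in YT cells, against 1753 and 1915 CPM in control cells (-1.09 ± 0.10). TAGLN, the actin-binding SM22, was at 539.9 and 627 CPM in YT cells, against 1197 and 1366 CPM in control cells (-1.14 ± 0.10). Both YT libraries lay at roughly the same level, well below the controls. The calponin CNN1 and the tropomyosin TPM1 fell, with changes of -1.26 and -1.16, and the cytoplasmic actins ACTB and ACTG1 fell, with changes of -0.87 and -0.45. The nonmuscle myosin MYH9 and the tropomyosin TPM4 were not called, at -0.18 ± 0.08 and -0.12 ± 0.10.

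Of 25 focal adhesion proteins 20 fell and 2 rose, with a median of -0.52. ACTN4, an actinin that crosslinks actin, was at 792 and 654 CPM in YT cells, against 1905 and 1846 CPM in control cells (-1.38 ± 0.09). The filamin FLNC, paxillin (PXN) and zyxin (ZYX) fell, with changes of -1.58, -0.83 and -0.84. Vinculin (VCL) was not called, at -0.18 ± 0.08. Of 15 integrin subunits 8 rose and 3 fell, beside 20.6% and 20.9% of all genes. With only the YT and control libraries fitted, 3 rose and 1 fell. ITGA8 was at 437 and 439 CPM in YT cells, against 136 and 137 CPM in control cells (1.67 ± 0.11), and ITGA6, a laminin receptor subunit, at 25.5 and 26.1 CPM in YT cells, against 73.5 and 76.5 CPM in control cells (-1.5 ± 0.10).

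In the matrix, 8 of 20 collagens rose and 1 fell, with a median of 0.06. The fibrillar COL1A1, at 15024 and 16335 CPM in YT cells, against 18487 and 17883 CPM in control cells, and COL1A2 (-0.30 ± 0.12) were not called. COL7A1, the anchoring fibril collagen, was at 142 and 147 CPM in YT cells, against 86.8 and 62.8 CPM in control cells (0.96 ± 0.13), and COL6A2 rose by 0.49. Higher collagens numbered 5 without control replicate 2, and lower ones 4 without YT replicate 3. Among glycoproteins and crosslinking enzymes 6 of 28 rose and 8 fell, beside 20.6% and 20.9% of all genes, so the share that rose was near that of all genes. With only the YT and control libraries fitted, 6 rose and 4 fell. Thrombospondin 1 (THBS1), an activator of latent TGF-beta, was at 157 and 129 CPM in YT cells, against 543 and 469.6 CPM in control cells (-1.82 ± 0.10). The lysyl oxidases LOX and LOXL1 and the prolyl hydroxylase P4HA2 fell, with changes of -0.88, -0.78 and -1.06. The proteoglycan FMOD and the periostin gene POSTN rose by 1.57 and 0.48.

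Of 20 matrix metalloproteinases, ADAM proteases and TIMP inhibitors 9 rose and 3 fell, beside 20.6% higher and 20.9% lower among all genes. MMP3, stromelysin 1, was at 42.0 and 45.5 CPM in YT cells, against 11 and 9.15 CPM in control cells (2.02 ± 0.19). The collagenase MMP1 was at 136 and 139 CPM in YT cells, against 62.1 and 75.2 CPM in control cells (1.0 ± 0.14). MMP10, MMP14 and MMP2 rose by 1.58, 0.85 and 0.48. All 5 had both YT libraries above both control libraries. The inhibitor TIMP3 was not called, at 0.01 ± 0.08. Of 8 genes of the plasminogen system 2 rose and 2 fell, near the shares of all genes. PLAT, tissue plasminogen activator, rose to 703 and 587 CPM in YT cells, against 253 and 257 CPM in control cells (1.33 ± 0.10). PLAU, urokinase, was at 3478 and 1382 CPM in YT cells, against 1578 and 1597 CPM in control cells, and only YT replicate 3 was above the controls. Its change was 0.47 ± 0.26 and not called with both YT libraries, and 1.13 and called without replicate 4. The hyaluronan receptor CD44 fell to 941 and 852 CPM in YT cells, against 1875 and 1934 CPM in control cells (-1.09 ± 0.09).

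**Figure D3:**
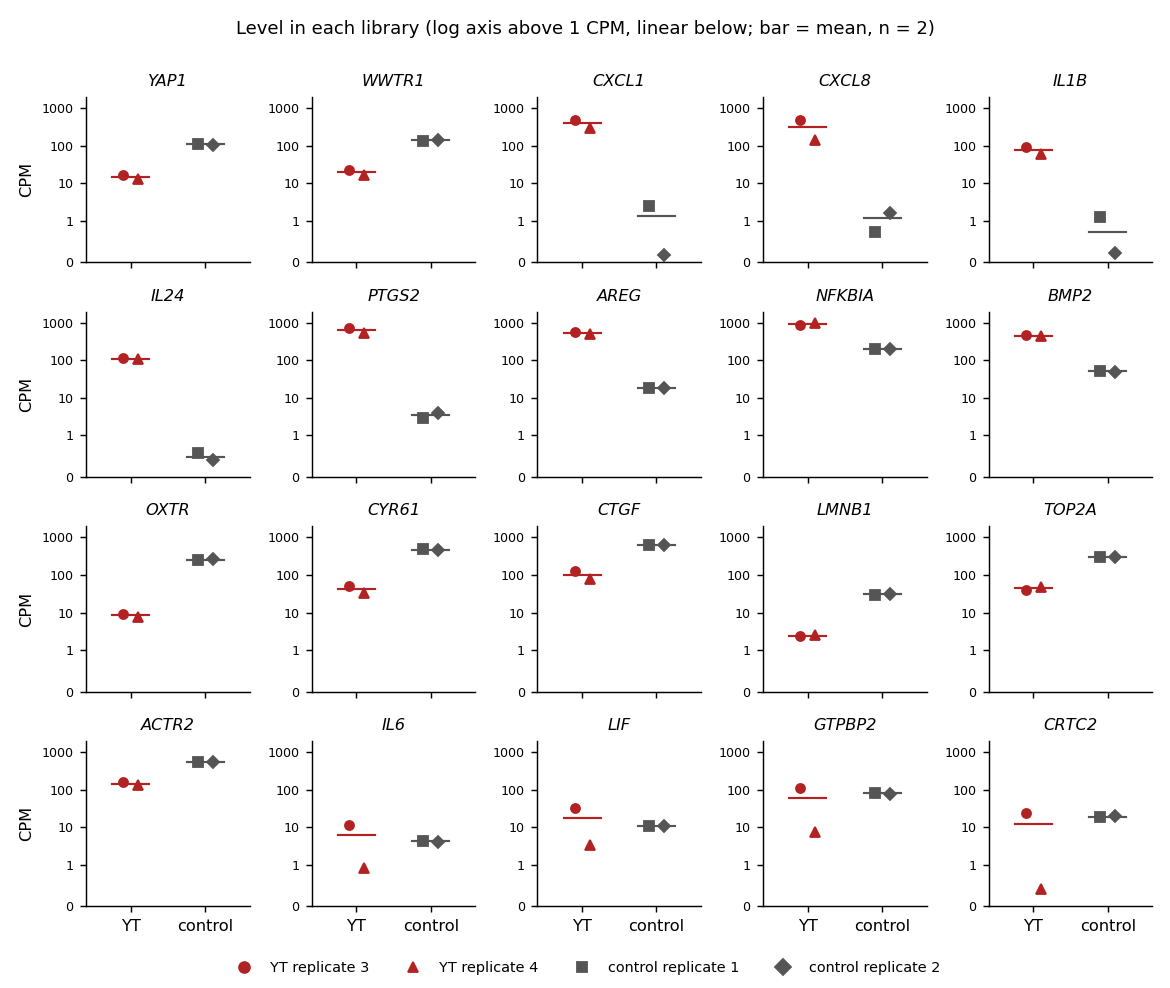
Level of 20 genes in each of the 4 libraries, in CPM on a log axis that is linear below 1, with YT on the left and control on the right of each panel and a bar at the mean. IL6, LIF, GTPBP2 and CRTC2, in the bottom row, have YT replicate 4 (triangle) below and replicate 3 (circle) above the controls, whereas in the other 16 panels the YT libraries lie together on a single side.

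Cytokines and chemokines made up 8 of the 15 most raised genes. Of 30 members listed, 22 were in the deposited signal and tested. Of these 22, 14 rose and 1 fell, beside 20.6% and 20.9% of all genes, with a median change of 1.68, and 12 rose at least 2-fold. IL24, IL1A and CXCL5 exceeded 1 CPM only in libraries given YAP and TAZ siRNAs, so they passed the filter on level only through those libraries. The count and median are thus partly set by that filter. Promoters of CXCL1 and of NFKBIA, the inhibitor that NF-kB induces against itself, are shown because they hold a match to the NF-kB motif. CXCL1 is at chr4:73869143-73869392 on the plus strand and NFKBIA at chr14:35404750-35404999 on the minus strand of GRCh38.p14 (RefSeq), with the match in capitals.
CXCL1: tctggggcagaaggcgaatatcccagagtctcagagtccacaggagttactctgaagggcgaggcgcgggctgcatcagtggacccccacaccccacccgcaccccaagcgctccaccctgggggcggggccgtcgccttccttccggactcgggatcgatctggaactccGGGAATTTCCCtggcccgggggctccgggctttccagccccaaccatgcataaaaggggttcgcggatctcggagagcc
NFKBIA: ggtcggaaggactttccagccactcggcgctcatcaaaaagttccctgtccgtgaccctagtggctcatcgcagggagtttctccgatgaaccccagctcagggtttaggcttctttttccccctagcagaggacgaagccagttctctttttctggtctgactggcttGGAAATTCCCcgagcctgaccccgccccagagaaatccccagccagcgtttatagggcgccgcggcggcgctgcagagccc
The capitals of CXCL1 cover 2 overlapping matches, which begin 79 and 78 bases before the start, and the match of NFKBIA begins 81 bases before it. The motif was found, on either strand, in 6 of 11 cytokines with a promoter entry (54.5%), in 5 of 10 genes of the NF-kB list (50%) and in 5.05% of all promoters. The 6 cytokines were the related chemokines CXCL1, CXCL2, CXCL3, CXCL5 and CXCL6, which rose, and IL6, which was not called. CXCL8, IL1B, IL11 and IL24 rose and CXCL12 fell without a match. Whether the motif goes with the rise was not tested.

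CXCL1, a neutrophil chemokine, was at 496 and 292 CPM in YT cells, against 2.49 and 0.170 CPM in control cells, where the lower value is the worth of 3 reads. Its change was 7.56 ± 0.40 (limma, adjusted p = 4.61e-10). CXCL8, interleukin 8, was at 493 and 146 CPM in YT cells, against 0.727 and 1.65 CPM in control cells (6.98 ± 0.40). YT replicate 4 was the lower YT library for both, and leaving out 1 library at a time gave changes of 6.77 to 8.35 for CXCL1 and of 6.10 to 7.85 for CXCL8. IL1B, a pyrogenic cytokine, was at 90.7 and 58.5 CPM in YT cells, against 1.25 and 0.227 CPM in control cells (5.48 ± 0.28). IL1A was at 58.1 and 46.9 CPM in YT cells, against 0.104 and 0.455 CPM in control cells (5.39 ± 0.24). IL24, of the interleukin 10 family, was at 112 and 112 CPM in YT cells, against 0.571 and 0.398 CPM in control cells (6.25 ± 0.25). These cytokines were below 3 CPM in both control libraries and above 46 CPM in both YT libraries. Of the control values, those of CXCL1 in replicate 2 and IL1A in replicate 1 are worth at most 3 reads. Each of these cytokines had a control value below 1 CPM, so the size of all these changes depends on the added 1.

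The chemokines CXCL5, CXCL3, CXCL2 and CXCL6 rose by 5.55, 5.46, 3.85 and 3.22. In control cells CXCL5 was at 0.208 and 0.114 CPM and CXCL3 at 0.467 and 0.0568 CPM. The size of their changes therefore also depends on the added 1. CXCL1, CXCL2 and CXCL3 are near-identical, so the split of their reads is uncertain. CCL2, which attracts monocytes, rose by 2.60. CXCL12, the ligand of CXCR4, was the member called lower, and fell by 1.18. IL6, a cytokine of senescent fibroblasts, was at 11.3 and 0.926 CPM in YT cells, against 4.36 and 3.98 CPM in control cells. LIF, of the same family, was at 32.8 and 3.29 CPM in YT cells, against 11 and 10.9 CPM in control cells. In IL6 and LIF the YT libraries lay on opposite sides of the controls, and neither was called with all libraries. Without YT replicate 4 their changes were 1.25 and 1.5, and without YT replicate 3 -1.42 and -1.47, all past the threshold. Without YT replicate 3, 5 members of the list were called lower.

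**Figure D4:**
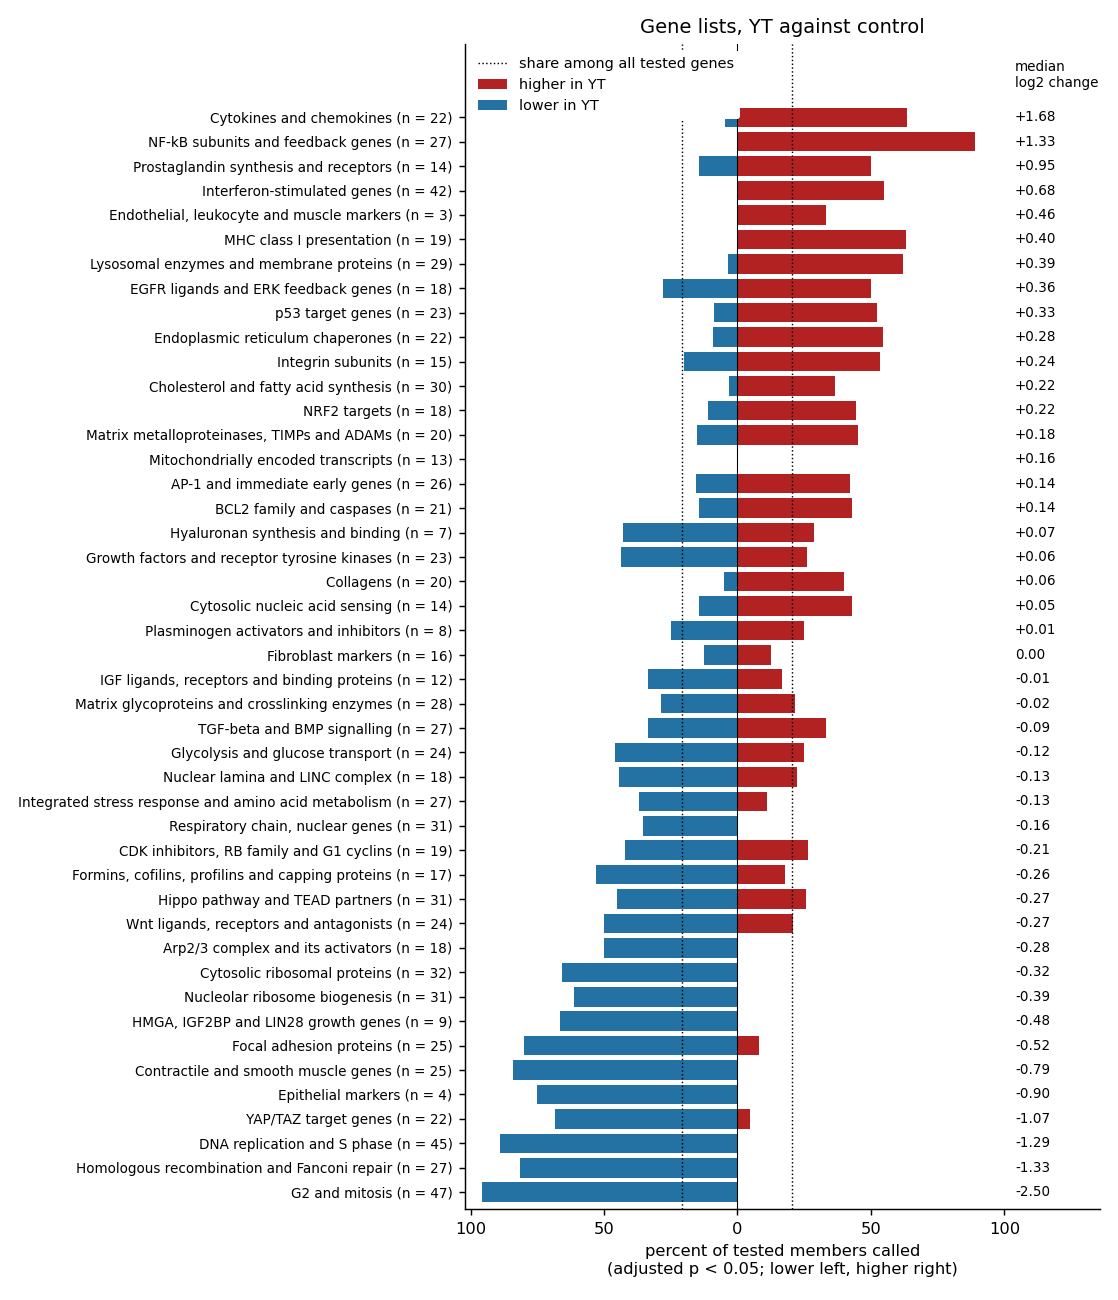
Share of the tested members of each gene list called higher (red, to the right) and lower (blue, to the left) in YT cells, with dotted lines at the shares among all genes, 20.6% and 20.9%, and the median change at the right. Lists run from the highest median at the top, cytokines with 14 of 22 members higher, to the lowest at the bottom, mitotic genes with 45 of 47 lower.

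Of 27 NF-kB subunits and feedback genes 24 rose and none fell, with a median of 1.33. NFKBIA was at 897 and 960.4 CPM in YT cells, against 203 and 199 CPM in control cells (2.20 ± 0.09, limma, adjusted p = 4.79e-11). TNFAIP3, the deubiquitinase A20, was at 215 and 188 CPM in YT cells, against 17.1 and 17.0 CPM in control cells (3.48 ± 0.18). The 2 YT libraries were close to each other and far above the controls. NFKBIZ, MAP3K8, SOD2, ICAM1 and VCAM1 rose by 2.73, 2.26, 2.39, 2.07 and 2.10. Of the subunits, RELB, NFKB2, NFKB1 and REL rose by 1.68, 1.6, 1.33 and 0.72, with REL not called without control replicate 2 (0.54). RELA, the p65 subunit, was not called, at 108 and 137 CPM in YT cells, against 101 and 122 CPM in control cells.

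Of the prostaglandin pathway 7 of 14 members rose and 2 fell. PTGS2, cyclooxygenase 2, was at 749 and 539 CPM in YT cells, against 2.96 and 3.86 CPM in control cells (7.18 ± 0.23, limma, adjusted p = 2.86e-12). PTGES, the synthase that follows it to prostaglandin E2, was at 70.1 and 92.3 CPM in YT cells, against 5.86 and 5.06 CPM in control cells (3.66 ± 0.16). Both enzymes were raised in both YT libraries. The phospholipase PLA2G4A, the transporter SLCO2A1 and the receptor PTGFR rose by 2.65, 1.69 and 2.5, and the receptor PTGER2 fell by 1.01. Of ligands of the EGF receptor family, AREG was at 568 and 492 CPM in YT cells, against 17.8 and 18.5 CPM in control cells (4.79 ± 0.17). EREG and NRG1 rose by 4.27 and 2.90, whereas HBEGF, of the same family, fell by 1.17. The feedback inhibitor ERRFI1 fell by 1.49. In this list 9 of 18 rose and 5 fell, with 3 lower without control replicate 2.

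Among immediate early genes 11 of 26 rose and 4 fell. The nuclear receptor NR4A2 was at 134 and 116 CPM in YT cells, against 3.68 and 6.08 CPM in control cells (4.45 ± 0.20). CEBPB, JUNB, ATF3 and MAFF rose by 1.40, 1.22, 1.45 and 1.24. MYC and FOSL1 fell, with changes of -1.65 and -0.72. JUN was not called, at 247 and 233 CPM in YT cells, against 249.6 and 253 CPM in control cells.

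Interferon-stimulated genes rose in 23 of 42 members and fell in none, with a median of 0.68. This count was lower with any 1 of the 4 libraries left out, most so without a control library. With only the YT and control libraries fitted, 25 rose. IRF1, a transcription factor of interferon gamma and NF-kB responses, was at 333 and 377 CPM in YT cells, against 138 and 139.7 CPM in control cells (1.34 ± 0.08). OAS2, MX1, BST2 and IFITM1 rose by 1.71 ± 0.39, 1.65 ± 0.41, 1.23 ± 0.27 and 1.29 ± 0.26. ISG15, IFIT1 and IFIT2 were not called, at 0.24 ± 0.25, -0.47 ± 0.30 and -0.38 ± 0.31, and the IFIT genes share sequence. Summed over the list, the level was 3615 and 4341 CPM in YT cells, against 2675 and 2766 CPM in control cells. In cGAS cells, which did not receive the YAP and TAZ siRNAs, the same sum was 10348 and 10958 CPM. In cGAS_YT cells it was as far apart as 7643 and 13593 CPM, and those libraries enter the spread that the fit shares.

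In cytosolic nucleic acid sensing 6 of 14 genes rose and 2 fell, with 3 higher without YT replicate 3 and without control replicate 2. The genes of cGAS and STING themselves, listed as MB21D1 and TMEM173, were not called, at -0.15 ± 0.22 and -0.35 ± 0.16. MB21D1 was at 7.66 and 6.07 CPM in YT cells, against 9.6 and 6.14 CPM in control cells, and TMEM173 at 18.1 and 19.2 CPM in YT cells, against 24.5 and 23.6 CPM in control cells. The kinase IKBKE and the nucleotide hydrolase SAMHD1 rose by 1.2 and 1.01. RNASEH2A, a subunit of the nuclease of RNA in DNA hybrids, and ENPP1, which degrades the product of cGAS, fell, with changes of -1.64 and -1.17. Of 19 genes of class I antigen presentation 12 rose and none fell, with 7 higher without control replicate 1. TAPBP, which bridges class I molecules to the peptide transporter, was at 409 and 527 CPM in YT cells, against 252 and 256 CPM in control cells (0.87 ± 0.10). HLA-B and TAP1 rose by 0.74 and 0.76.

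Of 23 p53 targets 12 rose and 2 fell, beside 20.6% and 20.9% of all genes. The count of higher members was not stable, and with only the YT and control libraries fitted 6 rose and 2 fell. GDF15, a stress-induced cytokine, was at 1125 and 1272 CPM in YT cells, against 190.1 and 179 CPM in control cells (2.69 ± 0.10, limma, adjusted p = 9.13e-12). MDM2, TP53INP1 and BBC3 (PUMA) rose by 0.69, 1.14 and 0.86, whereas ZMAT3 fell to 178 and 196 CPM in YT cells, against 439.9 and 414 CPM in control cells (-1.19 ± 0.08). SESN2 and TNFRSF10B were not called, at -0.10 and 0.07. Of BCL2 family members and caspases 9 of 21 rose and 3 fell. The proapoptotic BMF was at 64.1 and 57.3 CPM in YT cells, against 15.1 and 8.52 CPM in control cells (2.32 ± 0.22). BCL2, which opposes apoptosis, was at 2.64 and 2.01 CPM in YT cells, against 8.87 and 7.39 CPM in control cells (-1.46 ± 0.20). XIAP, an inhibitor of caspases, rose by 1.18.

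Of lysosomal enzymes and membrane proteins 18 of 29 rose and 1 fell, with a median of 0.39. CTSK, cathepsin K, was at 166 and 144 CPM in YT cells, against 66.7 and 68.3 CPM in control cells (1.18 ± 0.10). NPC1 and NPC2, which move cholesterol out of lysosomes, rose by 1.23 and 0.65. In cholesterol and fatty acid synthesis 11 of 30 rose and 1 fell, beside 20.6% and 20.9% of all genes. With only the YT and control libraries fitted, 5 rose and 0 fell. In cGAS_YT against cGAS cells 15 rose and 1 fell, and in STING_YT against STING cells 6 rose and 7 fell. HMGCS1, the synthase ahead of HMG-CoA reductase, was at 91.5 and 110.3 CPM in YT cells, against 59.5 and 58.2 CPM in control cells (0.76 ± 0.09). SREBF2, the factor that drives these genes, rose by 0.67. Endoplasmic reticulum chaperones rose in 12 of 22 members and fell in 2. HYOU1 and MANF rose by 0.71 and 0.80, and the collagen chaperone SERPINH1 fell by 0.46. Of NRF2 targets 8 of 18 rose and 2 fell, and SQSTM1, the autophagy receptor p62, was at 1796 and 1951 CPM in YT cells, against 737 and 782 CPM in control cells (1.30 ± 0.08). The lower NRF2 targets were both not called when YT replicate 4, control replicate 1 or control replicate 2 was left out.

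In glycolysis 11 of 24 genes fell and 6 rose, beside 20.9% and 20.6% of all genes. LDHA, lactate dehydrogenase, was at 82.1 and 76.7 CPM in YT cells, against 196 and 257 CPM in control cells (-1.49 ± 0.12). Enolase ENO1 and the glucose transporter SLC2A1 fell, with changes of -0.90 and -0.86, while ENO2 and SLC2A3 rose by 0.84 and 0.62. Of nuclear genes of the respiratory chain 11 of 31 fell and none rose, with 7 lower without control replicate 2 and 4 higher without YT replicate 3. NDUFA4 and SDHC fell, with changes of -0.64 and -0.76. None of the 13 mitochondrially encoded transcripts was called by limma, and 7 were called higher without control replicate 1, which had the highest mitochondrial share of the 4 libraries. Of these 13, 2 had an unadjusted p below 0.05 by limma, both higher, and edgeR called 0 and DESeq2 1 of them.

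Cytosolic ribosomal proteins fell in 21 of 32 members, with a median of -0.32. This count moved from library to library, at 28 without YT replicate 4, 14 without YT replicate 3, 21 without control replicate 1 and 9 without control replicate 2. RPL37 was at 506 and 502 CPM in YT cells, against 1161 and 1285 CPM in control cells (-1.28 ± 0.08), the only member that fell at least 2-fold. Nucleolar genes of ribosome assembly fell in 19 of 31 members and rose in none, with a median of -0.39. Fitted on the YT and control libraries only, 14 of them fell. DDX21, an RNA helicase, was at 221 and 230.1 CPM in YT cells, against 329 and 361 CPM in control cells (-0.61 ± 0.09), and nucleophosmin (NPM1) fell by 0.48. Of the integrated stress response and amino acid metabolism 10 of 27 fell and 3 rose. The transporter SLC7A5 and the serine enzymes PSAT1 and PSPH fell, with changes of -0.98, -0.85 and -0.86, and ATF4 was not called, at 0.03 ± 0.12.

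In TGF-beta and BMP signalling 9 of 27 members rose and 9 fell, beside 20.6% and 20.9% of all genes. BMP2, a bone morphogenetic protein, was at 474 and 440.2 CPM in YT cells, against 52.2 and 49.7 CPM in control cells (3.14 ± 0.13, limma, adjusted p = 4.47e-11). The BMP antagonists GREM1 and FST fell, with changes of -1.08 and -0.93. TGFB2, a ligand of TGF-beta receptors, was at 3.01 and 3.50 CPM in YT cells, against 18.2 and 21.2 CPM in control cells (-2.28 ± 0.17). SMURF2, a ubiquitin ligase that restrains this pathway, fell by 1.98, and the receptors TGFBR1, TGFBR2 and TGFBR3 fell, with changes of -1.12, -0.50 and -1.53.

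GAS6, the ligand of the kinase AXL, was at 75.4 and 45.2 CPM in YT cells, against 456 and 398 CPM in control cells (-2.85 ± 0.18), and AXL itself at 347 and 380.1 CPM in YT cells, against 679.8 and 713 CPM in control cells (-0.94 ± 0.08). Ligand and receptor were thus both lower in YT cells. FGF1, FGF5, MET and PDGFA fell, with changes of -2.31, -1.91, -1.57 and -1.14, whereas FGF7, VEGFA and PDGFRA rose by 0.77, 0.61 and 0.80. Of growth factors and their receptor kinases 6 of 23 rose and 10 fell, beside 20.6% and 20.9% of all genes. In the IGF family IGFBP3 fell to 47.2 and 31.7 CPM in YT cells, against 176 and 179.7 CPM in control cells (-2.17 ± 0.15), and the adaptors IRS1 and IRS2 fell, with changes of -0.78 and -1.5. Of the Wnt list 12 of 24 fell and 5 rose, so the share that rose was near the 20.6% of all genes. With only the YT and control libraries fitted, 9 fell and 3 rose. The Wnt antagonists SFRP1 and DKK1 fell, with changes of -1.33 and -2.19. Of 9 growth-associated HMG and IGF2BP genes 6 fell and none rose, and HMGB2, a chromatin protein of dividing cells, was at 18.0 and 10.5 CPM in YT cells, against 69.4 and 74.1 CPM in control cells (-2.30 ± 0.17).

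Fibroblast markers were expressed in all 4 libraries. All 16 of them were tested, and 2 rose, 2 fell and 12 were not called, with 5 called higher without YT replicate 4. Vimentin (VIM) was at 3341 and 2370.4 CPM in YT cells, against 4623 and 5148 CPM in control cells (-0.79 ± 0.13). Of 10 epithelial markers 4 keratins were tested, 3 fell, and their summed level was 28.4 and 35.1 CPM in YT cells, against 49.8 and 58.4 CPM in control cells. The other 6, EPCAM and CDH1 among them, are not analysed here. Of 13 endothelial, leukocyte and muscle markers TEK, CD68 and CD14 were tested, with a summed level of 121 and 113 CPM in YT cells, against 76.2 and 72.7 CPM in control cells, most of it TEK, which rose by 0.65.

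The same YAP and TAZ siRNAs were given to cells that also received cGAS or STING siRNAs, in libraries that the comparison above does not share. MB21D1, the cGAS gene, was at 1.65 and 1.30 CPM in cGAS_YT and 1.94 and 1.77 CPM in cGAS cells, and TMEM173, the STING gene, at 1.28 and 1.93 CPM in STING_YT and 1.79 and 1.77 CPM in STING cells, each below both control libraries. In cGAS_YT against cGAS cells 2087 genes rose (15%) and 1761 fell (12.7%). In STING_YT against STING cells 2660 genes rose (19.1%) and 2745 fell (19.8%). Of the genes called in YT against control, 44.4% were also called in the cGAS background, and these were 66.6% of the calls there. For the STING background the shares were 61.7% and 65.9%. Across all genes tested, the changes correlated at 0.575 with those in the cGAS background and at 0.742 with those in the STING background, as a description over genes, which are not independent.

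Whether a change differed between backgrounds was tested as an interaction, the change with cGAS or STING siRNAs minus the change without them. With cGAS siRNAs it was higher for 1042 genes (7.5%) and lower for 824 (5.93%). With STING siRNAs it was higher for 465 genes (3.35%) and lower for 630 (4.53%). Without YT replicate 3 these counts were 1914 higher and 1334 lower with cGAS siRNAs, and 1329 higher and 1210 lower with STING siRNAs. A negative interaction of a raised gene means that it rose less or not at all. Of the 12 most raised genes, all 12 had a negative interaction past the threshold with both cGAS and STING siRNAs. These genes were chosen by their change in YT against control, which the interaction subtracts. That choice alone draws raised genes toward negative and lowered genes toward positive interactions, so the count is a description only. Of 22 cytokines 14 had a lower interaction with cGAS and 12 with STING siRNAs, and of 27 NF-kB genes 19 and 17. Among all genes the shares were 5.93% and 4.53%.

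PTGS2 was at 24.4 and 25.9 CPM in cGAS_YT cells, against 13.4 and 15.7 CPM in cGAS cells, a change of 0.75 ± 0.23. It was at 35 and 61.1 CPM in STING_YT cells, against 1.21 and 2.31 CPM in STING cells, a change of 4.13 ± 0.23. Its interaction was -6.43 ± 0.33 with cGAS and -3.05 ± 0.33 with STING siRNAs (limma, adjusted p = 2.51e-09 and 2.03e-05). The rise was thus smaller in both backgrounds than without these siRNAs. CXCL8 was at 4.2 and 3.06 CPM in cGAS_YT cells, against 8.37 and 4.61 CPM in cGAS cells. It was at 1.67 and 2.08 CPM in STING_YT cells, against 1.05 and 1.07 CPM in STING cells. In neither background did CXCL8 come near its level in YT cells. AREG kept part of its rise, with changes of 1.21 ± 0.17 in the cGAS and 3.18 ± 0.17 in the STING background.

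**Figure D5:**
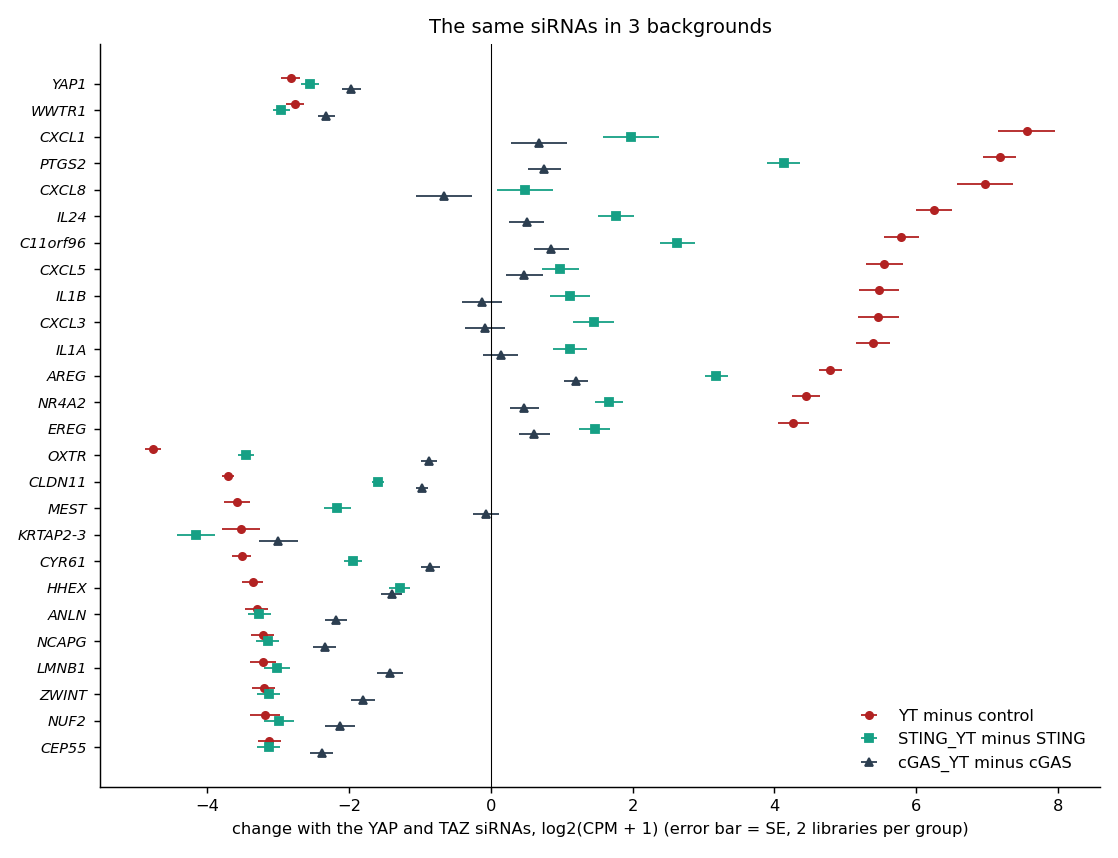
Change with the YAP and TAZ siRNAs on the log2(CPM + 1) scale, with its SE, for the targeted genes, the 12 most raised and the 12 most lowered genes, without further siRNAs (YT minus control, red circles) and in cells with STING siRNAs (squares) or cGAS siRNAs (triangles). The red circles of the raised genes lie to the right of both other symbols, and those of the mitotic genes lie close to the squares. The raised and lowered genes were chosen by the change that the red circles show.

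Mitotic genes fell in all 3 settings. In the cGAS background 43 of 47 were lower and in the STING background 47, and the interaction was higher for 18 with cGAS siRNAs and for 0 with STING siRNAs by limma. Summed over this list, cGAS cells already stood at 1158 to 1199 CPM, below control cells at 2079 and 2232 CPM. The sum was 463 to 495 CPM in cGAS_YT and 534 and 544 CPM in YT cells. With STING siRNAs edgeR and DESeq2 also called 0 higher, and 0 had an unadjusted p below 0.05 in that direction. CDK1, for example, was at 1.75 and 1.14 CPM in cGAS_YT cells, against 12.6 and 15.5 CPM in cGAS cells, and at 2.0 and 2.54 CPM in STING_YT cells, against 42.5 and 37.7 CPM in STING cells. ACTR2 was at 137 and 132 CPM in cGAS_YT cells, against 499.6 and 503 CPM in cGAS cells, and at 132 and 137 CPM in STING_YT cells, against 585 and 549 CPM in STING cells. Its interactions were not called, at 0.01 ± 0.12 and -0.17 ± 0.12. LMNB1 was at 3.45 and 2.39 CPM in cGAS_YT cells, against 10.2 and 8.69 CPM in cGAS cells, a change of -1.42 ± 0.18 with an interaction of 1.79 ± 0.26 (limma, adjusted p = 1.83e-04). Of the 12 most lowered genes 11 had an interaction past the threshold with cGAS siRNAs and 5 with STING siRNAs, all positive. These genes too were chosen by the change that the interaction subtracts. Contractile genes had a higher interaction in 18 of 25 members with cGAS and in 10 with STING siRNAs.

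The fall of YAP1 itself was smaller in the cGAS background. YAP1 was at 24.6 and 21.7 CPM in cGAS_YT cells, against 95.5 and 91.1 CPM in cGAS cells, and its interaction with cGAS siRNAs was 0.86 ± 0.19 (limma, adjusted p = 0.00516). In STING_YT cells YAP1 was at 12.6 and 16.1 CPM, against 94.7 and 82.2 CPM in STING cells, and that interaction was not called (0.28 ± 0.19). The part that this difference in YAP1 has in the smaller changes was not tested.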

How the data were processed

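RNA was sequenced from 3′ libraries (Lexogen QuantSeq, per the labels' protocols) of WI-38 fibroblasts in 6 groups of 2. Reads were aligned with STAR 2.5.3a to hg38 and counted with featureCounts, and edgeR was used, per the submitters' processing notes. The annotation and strand setting were not given in the sources used here, so overlapping and antisense genes may share reads. The authors deposited a signal table of 13937 genes, CPM scaled by edgeR's factors, with no header that states it. The values were 100% whole multiples of 1 read within 0.01 reads, and each gene had an unscaled CPM above 1 in at least 2 libraries. The 12 libraries held 17790774 to 20650727 reads.

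The comparison was fitted to log2(CPM + 1) in limma 3.58.1 (R 4.3.3) with all 6 groups in a model, a mean-dependent prior, 6 residual degrees of freedom and Benjamini-Hochberg adjustment over 13894 genes. Alternatives were edgeR 4.0.16 and DESeq2 1.42.0 on the whole reads, other scalings, pseudocounts and filters, a constant prior, the groups compared alone and each library left out. On these reads edgeR's quasi-likelihood test called 2815 genes higher and 2844 lower. Intervals and limits from reads cover counting error only. The scripts were tested on simulated data.

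The named genes were YAP1, WWTR1, IL6, the 15 most raised and 15 most lowered called genes that averaged at least 5 CPM over the 4 libraries with no overlap between groups, the 10 genes furthest apart between the YT libraries, and up to 6 called and 2 uncalled members of each of 45 gene lists (smallest p, and most abundant). Other list members are named for their role, after their values were seen, and results of some members are not reported here. The genes compared, the members and the lists were chosen with earlier results of these data known. Promoters are RefSeq's, matched by symbol, and positions were taken for 12521 genes (90.1%) with a single entry in GENCODE.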

Additional observations from a re-analysis of the deposited data

Results flagged for a closer look

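The change with the YAP and TAZ siRNAs differed between backgrounds, by the interaction term in limma with adjustment over all genes, for 41 of 52 interactions looked at (26 genes, each with cGAS and with STING siRNAs). The values below are the change with cGAS or STING siRNAs minus the change without them, on the log2(CPM + 1) scale, with 2 libraries in each group. Apart from YAP1 and WWTR1, the genes were chosen by the change without them, which the interaction subtracts. The count and the directions are therefore a description of chosen genes.

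With cGAS siRNAs the interaction of the chemokines CXCL8, CXCL1, CXCL3 and CXCL5 was -7.63, -6.88, -5.55 and -5.08. That of the interleukins IL24, IL1B and IL1A was -5.75, -5.60 and -5.26. PTGS2 had -6.43, C11orf96 -4.94, NR4A2 -3.97, EREG -3.65 and AREG -3.59. All of these rose in YT cells and rose less, or were not called, with cGAS siRNAs. Among genes that fell in YT cells, OXTR had 3.89, MEST 3.51, CLDN11 2.73, CYR61 2.66 and HHEX 1.96. The genes of the lamina and of division also fell less, LMNB1 with 1.79, ZWINT with 1.40, ANLN with 1.12, NUF2 with 1.06, NCAPG with 0.87 and CEP55 with 0.74. All of these started lower in cGAS than in control cells, so a smaller fall need not mean a higher end level. CEP55 fell from 13.1 and 15.2 CPM in cGAS to 1.75 and 2.02 CPM in cGAS_YT cells. Its levels were 45.5 and 49.5 CPM in control and 3.86 and 5.35 CPM in YT cells. ZWINT ended higher, at 6.89 and 5.24 CPM in cGAS_YT against 3.06 and 2.98 CPM in YT cells. At such levels the added 1 also understates a change. YAP1 had an interaction of 0.86, and the part of this smaller fall in the other values was not tested.

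With STING siRNAs the interaction of CXCL8, CXCL1, CXCL5 and CXCL3 was -6.50, -5.59, -4.57 and -4.01. IL24, IL1B and IL1A had -4.49, -4.36 and -4.28. C11orf96 had -3.16, PTGS2 -3.05, EREG -2.80, NR4A2 -2.78 and AREG -1.61. Lowered genes past the threshold were CLDN11 with 2.11, HHEX with 2.07, CYR61 with 1.57, MEST with 1.42 and OXTR with 1.32. The interaction of the division genes ANLN, NCAPG, ZWINT, NUF2 and CEP55, of LMNB1, KRTAP2-3, WWTR1 and YAP1 with STING siRNAs did not pass, nor did that of KRTAP2-3 and WWTR1 with cGAS siRNAs.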

How the results depend on the processing

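No paired analysis was possible because each replicate number occurs in a single group. Of the calls in YT against control, 3380 (58.5%) were kept with each of the 4 libraries left out in turn, and of the 1305 calls of at least 2-fold, 1220. Fitting only the YT and control libraries left 1909 genes higher and 1875 lower. The same restriction gave more calls elsewhere, 2472 and 2098 in cGAS_YT against cGAS and 3513 and 3473 in STING_YT against STING. Replicates correlated least in YT (0.987) and control (0.9928), against 0.993 to 0.995 in the other groups. The main fit shares its estimate of spread over all 6 groups, and the part of this in the counts was not tested. Other scalings, pseudocounts, filters, edgeR and DESeq2 kept the counts of the main fit within 1.5 times. With a constant prior, lower interactions with STING siRNAs numbered 392, and the cause was not tested.

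Leaving out 1 library gave 2112 to 2875 genes higher and 2125 to 3118 lower in YT against control. It gave 1177 to 2629 higher and 1079 to 2222 lower in cGAS_YT against cGAS, where the lowest counts were without cGAS_YT replicate 10. In STING_YT against STING it gave 1731 to 3142 higher, lowest without STING_YT replicate 16, and 1889 to 3199 lower. Interactions ranged from 636 to 1914 higher and 470 to 1334 lower with cGAS siRNAs, lowest without cGAS replicate 7. With STING siRNAs they ranged from 209 to 1329 higher and 341 to 1210 lower, lowest without STING_YT replicate 15. The highest interaction counts were all without YT replicate 3.

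For 5 of the genes chosen by the naming rule, and for ATF4, none of them called with all libraries, leaving out one or the other YT library gave opposite directions, both past the threshold. Without YT replicate 3 and without YT replicate 4, the changes were -0.30 and 0.50 for F3, -0.36 and 0.36 for CSF1, -1.47 and 1.5 for LIF, -3.28 and 0.48 for GTPBP2, -1.42 and 1.25 for IL6, and 0.29 and -0.22 for ATF4. Genes named above as not called also passed with a library left out in these cases: without YT replicate 3 LATS2 (-0.35), CTTN (-0.21), VCL (-0.27), COL1A2 (-0.47) and RELA (0.30), and without YT replicate 4 BUB3 (-0.25), EMD (-0.26), ARPC4 (-0.30), TPM4 (-0.26), SESN2 (-0.21) and CDKN2A (0.33). Of 360 named genes, 299 had the same call under every alternative. Apart from the list counts given above with a library left out, counts of up to 5 members moved by at most 2. At 3 reads a gene stood at 0.154 to 0.170 CPM in the 4 libraries, which limits what can be said of genes near that level.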

Other observations

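Of 450 long noncoding RNAs, described here after their values were seen, 25.3% were called, against 44.9% of 11734 protein-coding genes, a difference that was not tested. Their mean level was also lower, with a median of 2.36 CPM against 25.7 CPM, and the share called depended on level. Of the noncoding genes 64 rose and 50 fell. FENDRR, a lung mesenchyme transcript next to FOXF1, was at 485 and 481 CPM in YT cells, against 193 and 201 CPM in control cells, a change of 1.29 ± 0.08. CASC15 and MIAT rose by 2.0 and 1.61. The host transcript of the microRNA miR-222, MIR222HG, fell by 1.38, the snoRNA host SNHG3 fell by 1.24, and MIR503HG fell by 1.19.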
